A study of Mus musculus with 6 samples.

Results

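The urea cycle and the periportal breakdown of amino acids were followed through 10 genes that were given as a list of names, namely Nags, Cps1, Otc, Slc25a15, Ass1, Asl, Arg1, Gls2, Hal and Sds. All 10 were found by gene name among the 25904 genes of the count table, and all 10 were abundant enough to be tested. Polyadenylated RNA had been sequenced from livers of C57BL/6J mice, 3 libraries from mice heterozygous for Ptprd (Ptprd+/-, called Het) and 3 from their wild-type counterparts (Ptprd+/+, called WT). Ptprd encodes a receptor-type tyrosine phosphatase, and the series concerns its part in metabolic disease of the liver. The sources used here do not give what the Ptprd allele carries, nor the sex, age, feeding state or hour of sampling of the mice. Nothing in the labels says that each library came from its own mouse, so p-values measure the spread between these libraries.

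Ammonia released from amino acids is toxic, and the liver turns it into urea. Hepatocytes near the portal vein hold the enzymes of this cycle, which starts in the mitochondrion and ends in the cytosol, together with enzymes that strip nitrogen from glutamine, histidine and serine. Hepatocytes around the central vein instead catch leftover ammonia as glutamine through glutamine synthetase, encoded by Glul. Glucagon, glucocorticoids and dietary protein are known to raise the periportal enzymes.

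None of the 10 genes passed a test of the difference between Het and WT livers. By edgeR's quasi-likelihood test with Benjamini-Hochberg adjustment over 14606 genes, 0 of 10 passed an adjusted p of 0.05, where 0% of all genes did, and 0 of 10 had an unadjusted p under 0.05, where 7.15% of all genes did. DESeq2 also called 0 of 10, against 0.353% of the genes that it tested, and limma-voom called 0 of 10. In 9 of 10 the Het and WT libraries overlapped, and the exception was Otc, with all Het libraries below all WT libraries. Over all tested genes 6.72% lay wholly below WT in this way, 7.15% wholly above, and 13.9% either way. The log2 fold changes, Het over WT, ran from -0.48 for Ass1 to 0.09 for Nags, with 7 below 0 and a median of -0.20, beside a median of -0.004 for all tested genes. That median was 0.00 without WT 1 and -0.01 without Het 3, the highest and lowest libraries for most of the 10 genes. Without any other single library it was between -0.29 and -0.21.

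The libraries held 37924266 to 72954187 counts, and the 10 genes had between 2643 and 264416 counts in every library, so that counting error was small beside the differences between libraries. Values are CPM, a gene's count per one-millionth of the effective library size, as mean ± SD with n = 3 per genotype. Ptprd itself had 54.1 to 78.1 CPM in Het and 127 to 132 CPM in WT, without overlap, which checks the labels. Its log2 fold change was -0.99, with an adjusted p of 0.298 by edgeR and 3.83e-06 by DESeq2. Het 2 and Het 3 stood apart from the other 4 libraries in clock genes. For Dbp, whose product drives clock output, Het 2 held 129 CPM and Het 3 held 122 CPM, while Het 1 held 13.5 CPM and the WT libraries 14.4 to 29.6 CPM. Arntl, which encodes the clock activator BMAL1, was low in the same libraries, at 2.41 CPM in Het 2 and 1.92 CPM in Het 3, while Het 1 held 21.4 CPM and the WT libraries 11.8 to 19.7 CPM.

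**Figure D1:**
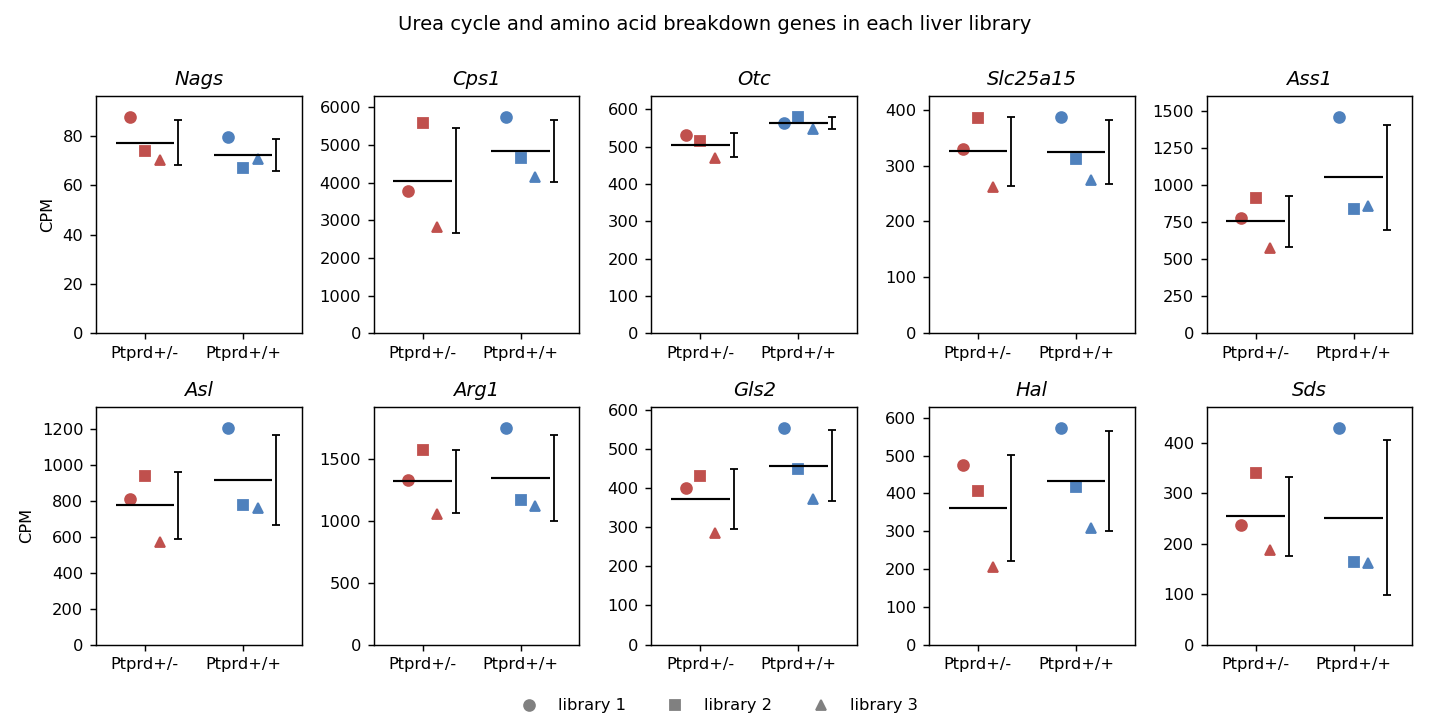
CPM of each of the 10 genes (y axis, from 0) in the 3 Ptprd+/- libraries and the 3 Ptprd+/+ libraries. Each point is a library, horizontal lines are genotype means and bars are SD. The genotypes overlap in every panel except Otc, and library 1 is the highest Ptprd+/+ point in every panel except Otc.

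The entry of ammonia into the cycle is controlled by Nags and Cps1. Nags makes N-acetylglutamate, without which carbamoyl phosphate synthetase 1 is inactive. Nags (chromosome 11, 102145513 to 102149477, mm10) had 87.6, 74.0 and 70.1 CPM in Het 1, Het 2 and Het 3, and 79.5, 66.9 and 70.8 CPM in WT 1, WT 2 and WT 3. The genotypes overlapped over most of their range, with means of 77.2 ± 9.17 CPM in Het and 72.4 ± 6.43 CPM in WT. The log2 fold change was 0.09 (SE 0.12, edgeR adjusted p 0.877). The 95% interval of the fold ran from 0.883 to 1.29. Of the Nags exon bases 443 are shared with Gm11586 on the other strand, which had at most 2.62 CPM.

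Cps1 encodes the mitochondrial enzyme that joins ammonia and bicarbonate into carbamoyl phosphate. Cps1 (chromosome 1, 67123026 to 67231259) had 3776, 5577 and 2812 CPM in the Het libraries and 5740, 4652 and 4145 CPM in the WT libraries. Het 1 and Het 3 lay below every WT library, while Het 2 lay between WT 1 and WT 2. The means were 4055 ± 1403 CPM in Het and 4846 ± 815 CPM in WT, a log2 fold change of -0.26 (SE 0.25, edgeR adjusted p 0.827). This value rested on single libraries. Without Het 2 it was -0.55 with an unadjusted p of 0.035 and an adjusted p of 0.495, and without Het 3 it was -0.05. Without WT 1 it was -0.12, and over the 14 alternatives the adjusted p was 0.495 or higher.

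Otc and Slc25a15 complete the mitochondrial part. Ornithine transcarbamylase, encoded by Otc on the X chromosome (10252305 to 10321024), joins carbamoyl phosphate to ornithine and yields citrulline. Otc had 531, 514 and 470 CPM in Het, against 564, 579 and 548 CPM in WT. Even the highest Het library lay below the lowest WT library. The means were 505 ± 31.5 CPM in Het and 563 ± 15.6 CPM in WT, 1.12-fold lower in Het. The log2 fold change was -0.16 (SE 0.10, 95% interval -0.39 to 0.07, edgeR adjusted p 0.746). The exact two-sided permutation p was 0.1, the smallest that 3 against 3 libraries allow, and DESeq2's adjusted p was 0.979. The fold change stayed below 0 under all 14 alternatives, between -0.20 and -0.08. Without both Het 2 and Het 3, the libraries with the other clock gene levels, it was -0.08.

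Slc25a15 encodes the carrier that brings ornithine into the mitochondrion in exchange for citrulline. Slc25a15 (chromosome 8, 22375551 to 22398597) had 330, 385 and 261 CPM in Het, against 387, 311 and 275 CPM in WT. The ranges nearly coincided, and the means were 325 ± 61.8 CPM in Het and 324 ± 56.9 CPM in WT. The log2 fold change was 0.00 (SE 0.18), with a 95% interval of the fold from 0.758 to 1.33.

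In the cytosol, Ass1 condenses citrulline with aspartate, Asl splits the product into arginine and fumarate, and Arg1 frees urea and returns ornithine. Ass1 (chromosome 2, 31470207 to 31520672) had 779, 914 and 576 CPM in Het, against 1461, 842 and 859 CPM in WT. WT 1 stood far above all other libraries, and Het 2 lay above WT 2 and WT 3. With means of 756 ± 170.5 CPM in Het and 1054 ± 353 CPM in WT, Ass1 had the largest difference of the 10 genes, a log2 fold change of -0.48 (SE 0.25, 95% interval -1.06 to 0.10, edgeR adjusted p 0.722). Without WT 1 the log2 fold change was -0.17, and without Het 3 it was -0.32. Without any other single library it was between -0.63 and -0.51. DESeq2's adjusted p for Ass1 was 0.794.

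Asl (chromosome 5, 130011258 to 130029247) had 811, 938 and 574 CPM in Het, against 1203, 778 and 760 CPM in WT. As for Ass1, WT 1 was the highest and Het 3 the lowest library. The log2 fold change was -0.24 (SE 0.23, adjusted p 0.824 by edgeR) and turned to 0.01 without WT 1. Arg1 (chromosome 10, 24915221 to 24927484) had 1330, 1573 and 1059 CPM in Het, against 1749, 1169 and 1119 CPM in WT. Its genotype means were close, at 1321 ± 257 CPM in Het and 1346 ± 350 CPM in WT, and the 95% interval of the fold was 0.700 to 1.38. Its log2 fold change was -0.03 over all libraries, 0.21 without WT 1 and 0.11 without Het 3.

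Gls2, Hal and Sds release nitrogen from single amino acids. Liver-type glutaminase, encoded by Gls2 (chromosome 10, 128194457 to 128210004), frees ammonia from glutamine inside the mitochondrion. Gls2 had 400, 432 and 285 CPM in Het, against 554, 449 and 372 CPM in WT. Het 1 and Het 2 lay between WT 3 and WT 2, and the means were 372.5 ± 77.6 CPM in Het and 458 ± 91.2 CPM in WT (log2 fold change -0.30, SE 0.19, edgeR adjusted p 0.747). Without WT 1 or without Het 3 the log2 fold change of Gls2 was -0.14. Without any other single library it was between -0.43 and -0.31. Of the Gls2 exon bases 97 also lie in exons of Spryd4 on the other strand, which had at most 36.3 CPM.

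Histidine ammonia-lyase, encoded by Hal (chromosome 10, 93488768 to 93519304), takes the first step of histidine breakdown. Hal had 475, 405 and 205 CPM in Het, against 572, 417 and 309 CPM in WT. Het 3 lay below all other libraries, and the other Het libraries lay inside the WT range. The log2 fold change was -0.26 (SE 0.32, edgeR adjusted p 0.871), 0.02 without Het 3 and 0.14 without both Het 2 and Het 3.

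Serine dehydratase, encoded by Sds (chromosome 5, 120476526 to 120483932), turns serine into pyruvate and ammonia. Sds had 237, 340 and 187 CPM in Het, against 429, 165 and 162 CPM in WT. WT 1 held 2.65 times as much as WT 3, so the spread within WT was wider than for any other of the 10 genes. The means were 255 ± 78.1 CPM in Het and 252 ± 153 CPM in WT, and the 95% interval of the fold, from 0.543 to 1.88, was the widest of the 10. The log2 fold change was 0.02 over all libraries and 0.64 without WT 1 (edgeR unadjusted p 0.026, adjusted p 0.945). Exons of Plbd2 on the other strand cover 360 of the 1694 exon bases of Sds. Plbd2 had at most 108 CPM, and the sources used here do not say whether counting used the strand.

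**Figure D2:**
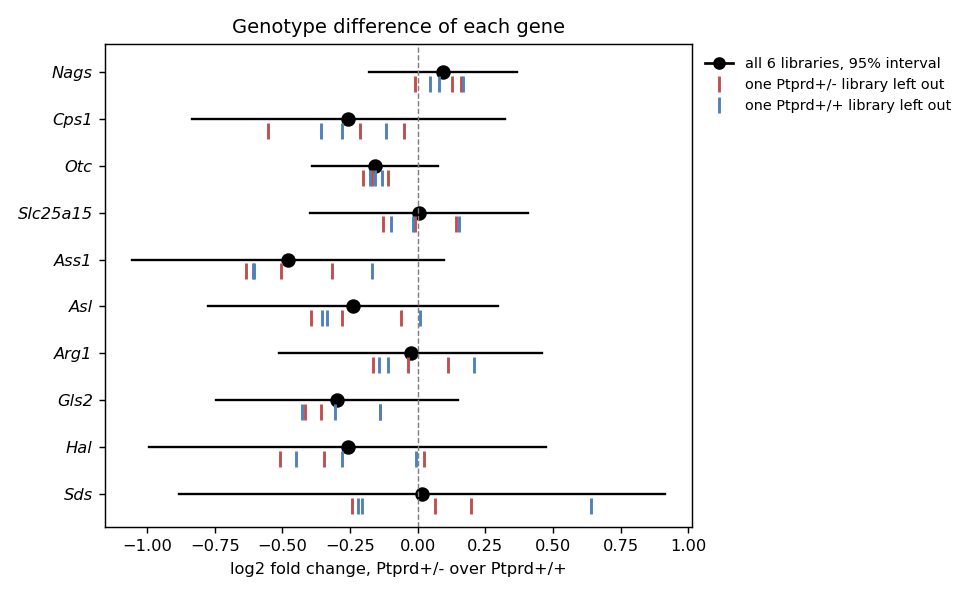
Log2 fold change of each gene, Ptprd+/- over Ptprd+/+ (x axis), with its 95% interval. Dots stand for all 6 libraries and coloured ticks for fits without 1 library. All 10 intervals include 0, and the ticks of 6 genes fall on both sides of it.

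Set per kilobase of annotated exon, the 10 genes kept the same order of levels in both genotypes. Cps1 was first, at 730 ± 253 CPM per kilobase in Het and 872 ± 147 in WT. Arg1 followed with 593 ± 115 in Het and 604 ± 157 in WT, and Ass1 with 313 ± 70.6 in Het and 437 ± 146 in WT. Asl, Sds, Otc and Gls2 came next, with means between 107 and 160.3 CPM per kilobase in Het and between 132 and 189 in WT. Hal had 65.2 ± 25.2 in Het and 78.0 ± 23.8 in WT, Slc25a15 had 57.8 ± 10.97 in Het and 57.6 ± 10.1 in WT, and Nags was last with 27.2 ± 3.23 in Het and 25.5 ± 2.27 in WT. Of the 9 pairs of neighbours in this order, 6 overlapped between libraries in Het and 6 in WT. Nags lay below every library of Slc25a15 in both genotypes, and Ass1 lay above every library of Asl. Exon lengths were taken over all annotated transcripts and can exceed that of the main liver transcript.

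For most of the 10 genes, libraries of the same genotype differed by more than the genotype means did. In 8 of 10 genes the SD of log2 CPM within genotypes, pooled over both, exceeded the difference of the genotype means. The share of all tested genes for which this held was not computed, so the count cannot be read as particular to these 10. For Gls2 the SD was 0.304 and the difference 0.303. Only Otc and Ass1 went the other way, with 0.07 against 0.16 for Otc and 0.40 against 0.46 for Ass1. Within Het, Hal varied 2.31-fold between its highest and lowest library, Cps1 1.98-fold and Sds 1.82-fold. Otc varied 1.13-fold within Het and 1.06-fold within WT, and Nags 1.249-fold within Het and 1.19-fold within WT.

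Most of the 10 genes shared their highest and lowest libraries, while the order in between was mixed. Het 3 was the lowest library of all in 8 of 10 genes, and the lowest Het library in 10 of 10. WT 1 was the highest library of all in 8 of 10 genes, and the highest WT library in 9 of 10. In 7 of 10 genes both held at once, beside 4.64% of all 14606 tested genes. WT 1 and Het 3 were picked out from the values of these same 10 genes, so the shares are a description and not a test. Relative to each gene's own mean over the 6 libraries, the median log2 level of the 10 genes was 0.00, 0.14 and -0.43 in Het 1, Het 2 and Het 3, and 0.43, -0.05 and -0.12 in WT 1, WT 2 and WT 3. Het 2 and Het 3, which shared their Dbp and Arntl levels, thus lay at opposite ends of the Het range for Cps1, Ass1, Asl, Arg1, Slc25a15, Gls2 and Sds. Together the 10 genes took 0.820, 1.11 and 0.664% of counts in Het, and 1.28, 0.995 and 0.849% in WT, with means of 0.866 ± 0.228% in Het and 1.04 ± 0.219% in WT.

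**Figure D3:**
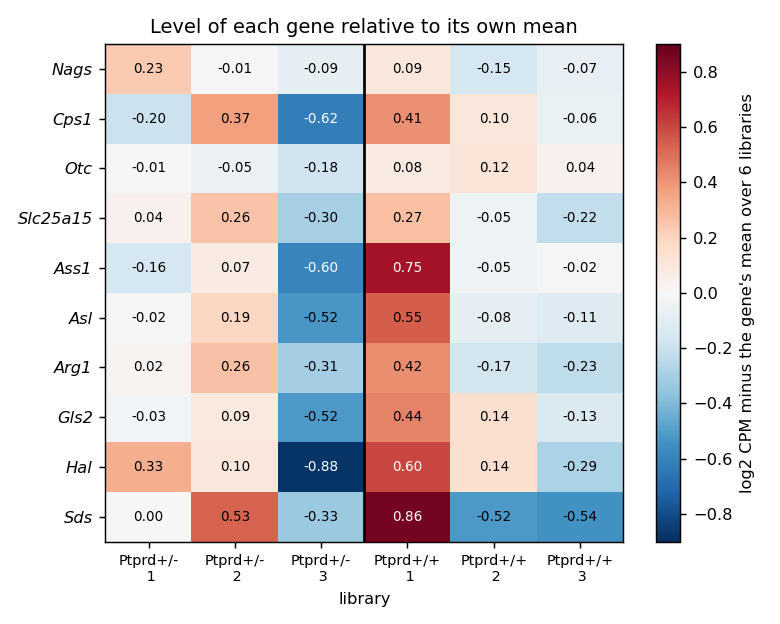
Log2 CPM of each gene minus its mean over the 6 libraries (colour and printed values), Ptprd+/- libraries left of the black line and Ptprd+/+ libraries right of it. Ptprd+/+ library 1 is above the mean in all 10 rows and Ptprd+/- library 3 below it in all 10, while the remaining libraries are mixed.

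Neither Otc nor Nags was highest in WT 1. Among tested genes with a mean of at least 10 CPM, those whose log2 CPM followed Otc most closely over the 6 libraries included G6pc (Pearson r 0.99) and Cers2 (0.97). For Nags they were Cfl1 (0.995), Dph3 (0.99) and Sh3glb2 (0.98). Sds, the most variable of the 10, was followed most closely by Oat (0.99), the ornithine aminotransferase gene, then by Abhd15 (0.99) and Aldh9a1 (0.98). Hal was followed by C1qbp (0.99), Cox20 (0.99) and Mccc1 (0.98). These are descriptions over 6 libraries made with the same kit, whose depths differ, and the closest of so many genes will be close in any such search.

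The stretches before the RefSeq start sites (GRCm38.p6) of Hal, Slc25a15, Otc and Nags are set side by side below. Hal and Slc25a15 were highest in WT 1 and lowest in Het 3. Otc was lowest in Het 3 but not highest in WT 1, and Nags was neither. Each stretch is 250 bases long, 5′ to 3′ on the strand of the gene. They lie at chr10:93488518-93488767 (plus strand) for Hal, chr8:22398622-22398871 (minus) for Slc25a15, chrX:10252055-10252304 (plus) for Otc and chr11:102145263-102145512 (plus) for Nags. Capitals mark matches to the motifs searched.
Hal: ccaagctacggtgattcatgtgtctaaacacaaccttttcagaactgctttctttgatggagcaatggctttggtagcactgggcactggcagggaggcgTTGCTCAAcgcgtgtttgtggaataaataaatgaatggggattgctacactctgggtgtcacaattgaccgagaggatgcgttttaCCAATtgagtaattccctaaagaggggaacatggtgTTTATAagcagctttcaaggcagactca
Slc25a15: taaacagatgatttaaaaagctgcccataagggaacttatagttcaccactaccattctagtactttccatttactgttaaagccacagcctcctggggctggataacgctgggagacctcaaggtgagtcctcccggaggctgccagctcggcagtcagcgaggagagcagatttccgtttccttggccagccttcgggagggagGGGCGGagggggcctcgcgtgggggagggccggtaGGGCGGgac
Otc: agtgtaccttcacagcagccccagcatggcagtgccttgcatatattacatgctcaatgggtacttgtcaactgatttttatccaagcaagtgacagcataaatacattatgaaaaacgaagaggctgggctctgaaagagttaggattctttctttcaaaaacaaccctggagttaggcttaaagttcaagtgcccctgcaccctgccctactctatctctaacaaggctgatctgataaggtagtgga
Nags: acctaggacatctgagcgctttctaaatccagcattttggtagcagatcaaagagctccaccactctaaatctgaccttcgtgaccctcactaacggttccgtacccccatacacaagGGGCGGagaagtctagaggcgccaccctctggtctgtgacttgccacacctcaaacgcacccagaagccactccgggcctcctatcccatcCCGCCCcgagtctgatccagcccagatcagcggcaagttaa
Both strands were searched for 7 motifs, namely TATAAA of the core promoter, TGACG of cAMP response elements, TTNNGCAA of C/EBP factors, AGAACA of glucocorticoid response elements, GGGCGG of SP factors, CCAAT of NF-Y and TTANNTAA of DBP, and no 2 matches overlapped. Hal held TATAAA, on the opposite strand and starting 28 bases before the start site, with TTNNGCAA and CCAAT. Such motifs stood in 12.4, 9.57 and 33.9% of the 32841 promoter stretches of this length. Slc25a15 and Nags each held GGGCGG at 2 places, a motif found in 32.7% of stretches, and Otc held none of the 7. TGACG (17.8% of stretches), AGAACA (16.1%) and TTANNTAA (5.44%) matched in none of these 4. Ass1, also highest in WT 1 and lowest in Het 3, had a shorter stretch of 187 bases, not printed, which held none of the 7. Slc25a15 has another RefSeq start site, at 22398277 inside the gene, whose stretch was not searched. A match of letters is a description, and these windows leave out the distal elements of the genes.

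The other genes of amino acid handling were covered by 5 lists with 80 tested genes. By edgeR 0 of 80 passed the adjusted threshold and by DESeq2 0 of 80. An unadjusted p under 0.05 was reached by 5 (6.25%), and 7 (8.75%) had genotypes that did not overlap, beside 7.15% and 13.9% of all tested genes. Their median log2 fold change was -0.08, with 53 below 0 and 27 above, beside 7413 below and 7193 above among all tested genes. The medians of the 5 lists lay between -0.01 and 0.06 without WT 1, and between -0.09 and 0.05 without Het 3. Without any other single library they lay between -0.25 and -0.03. WT 1 was the highest library in 46 of 80 (57.5%), beside 18.0% of all tested genes, and Het 3 the lowest in 49 of 80 (61.3%), beside 15.9%.

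Genes that feed or flank the cycle had a median log2 fold change of -0.02. Glud1, glutamate dehydrogenase, had 1007, 958 and 933 CPM in Het, against 892, 820 and 887 CPM in WT, without overlap, at a log2 fold change of 0.16 (edgeR adjusted p 0.750). It was named after its values were seen. Aldh18a1, of proline and ornithine synthesis, had 1.38 ± 0.17 CPM in Het and 1.88 ± 0.23 CPM in WT, without overlap (edgeR adjusted p 0.704).

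Breakdown of histidine, serine, glycine and threonine had a median of -0.10 over 15 genes, with Agxt, alanine-glyoxylate aminotransferase, at 328 ± 51.5 CPM in Het and 269 ± 31.7 CPM in WT, and Gcat at 85.7 ± 6.87 CPM in Het and 97.7 ± 6.70 CPM in WT. The aromatic amino acid list had a median of -0.07 over 15 genes. In it Qdpr, which regenerates the cofactor of phenylalanine hydroxylase, had 338 ± 31.0 CPM in Het and 470 ± 104 CPM in WT, all Het libraries being below WT (edgeR unadjusted p 0.020, adjusted p 0.685). Haao, of the tryptophan route, had 522 ± 39.5 CPM in Het and 621 ± 39.8 CPM in WT, likewise without overlap.

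The branched-chain and lysine list had a median of -0.09 over 19 genes. Bcat2, a branched-chain aminotransferase, had 24.7 ± 2.42 CPM in Het and 20.2 ± 1.93 CPM in WT, with all Het libraries above WT. Dbt, a subunit of the branched-chain ketoacid dehydrogenase, had 71.7, 95.2 and 67.4 CPM in Het, against 117.5, 99.9 and 82.9 CPM in WT. The methionine and cysteine list had a median of -0.16 over 11 genes. Csad, of taurine synthesis, had 228 ± 60.8 CPM in Het and 139 ± 53.1 CPM in WT, and Cbs, the entry to transsulfuration, 540 ± 122.6 CPM in Het and 404 ± 29.9 CPM in WT. None of Agxt, Gcat, Qdpr, Haao, Bcat2, Dbt, Csad and Cbs passed edgeR's adjusted threshold, with adjusted p between 0.685 and 0.725.

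**Figure D4:**
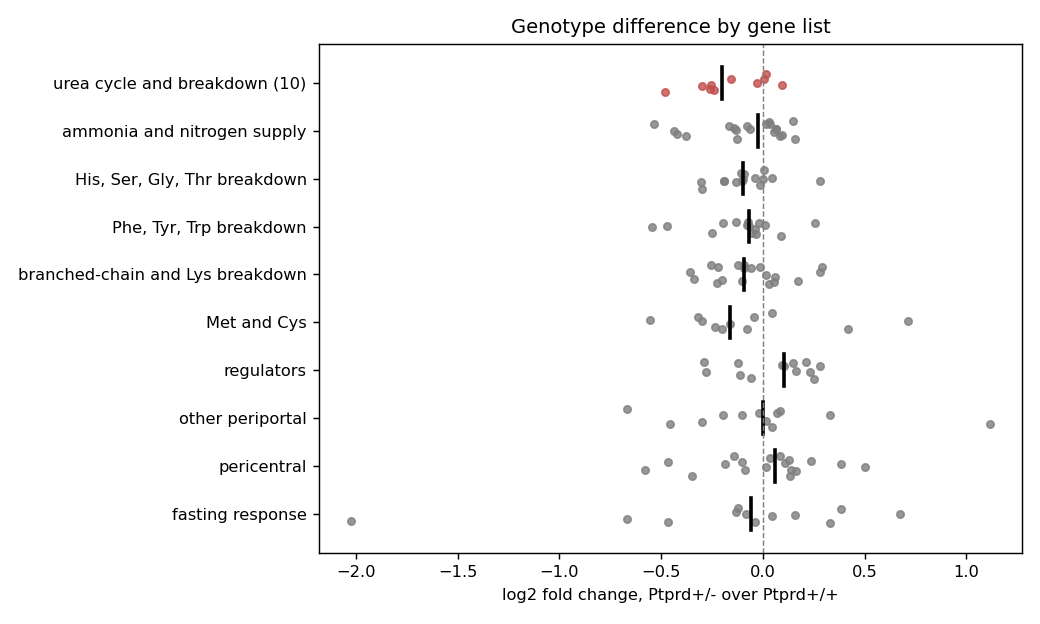
Log2 fold change, Ptprd+/- over Ptprd+/+ (x axis), of each tested gene (dots, spread vertically at random) in the 10 genes (top row, red) and in 9 related lists, with black bars for medians. The medians lie between -0.20 and 0.10.

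Regulators and zonal markers gave the setting of these values. Of 13 regulators 0 passed edgeR's or DESeq2's adjusted threshold, and the median log2 fold change was 0.10. Gcgr, the glucagon receptor gene, had 314, 278 and 283 CPM in Het, against 212, 243 and 266 CPM in WT, with all Het libraries above WT and a log2 fold change of 0.28 (edgeR unadjusted p 0.043, adjusted p 0.694). Nr3c1, the glucocorticoid receptor gene, had 68.9 ± 9.21 CPM in Het and 84.1 ± 6.22 CPM in WT. Of 12 genes known to respond to fasting or glucagon 0 passed by edgeR, and their median was -0.06. Pdk4 had 5.12 ± 1.89 CPM in Het and 20.6 ± 9.86 CPM in WT, and was the gene of that list that DESeq2 called (adjusted p 6.93e-06, against 0.504 by edgeR). G6pc, of glucose release, had 320 ± 105 CPM in Het and 509 ± 52.5 CPM in WT.

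The other 12 periportal genes had a median of 0.00, with Hsd17b6 at 274 ± 40.8 CPM in Het and 126 ± 49.5 CPM in WT (edgeR adjusted p 0.636, DESeq2 adjusted p 0.0151). The 18 pericentral genes had a median of 0.06, with 0 passing by either tool. Among them Glul had 1012, 1080 and 1219 CPM in Het, against 1035, 999.9 and 1242 CPM in WT, a log2 fold change of 0.01. Cyp2e1 had 8340, 7994 and 9497 CPM in Het, against 4899, 6889 and 8016 CPM in WT, and Cyp1a2 454 ± 51.9 CPM in Het and 386 ± 36.0 CPM in WT. Axin2, a WNT target, had 6.76 ± 0.59 CPM in Het and 9.33 ± 1.92 CPM in WT, and Cyp7a1, of bile acid synthesis, 134 ± 35.3 CPM in Het and 199.9 ± 48.9 CPM in WT. In bulk tissue, fewer cells of a kind and less RNA per cell cannot be told apart.

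Hepatocyte transcripts dominated the libraries. Alb alone had 118412 to 144174 CPM in Het and 100040 to 117403 CPM in WT, without overlap (edgeR adjusted p 0.802), and the 8 hepatocyte markers summed to 149953 to 186903 CPM in Het and 125540 to 152250 CPM in WT. Among these 8, Ttr had 6738 ± 283 CPM in Het and 5336 ± 539 CPM in WT. The 10 Kupffer cell markers summed to 407 to 765 CPM in Het and 538 to 840 CPM in WT, with 8 of 10 log2 fold changes below 0. Among them Marco, a scavenger receptor gene, had 37.1, 10.9 and 28.1 CPM in Het, against 93.5, 69.9 and 53.8 CPM in WT. All Het libraries lay below WT, as for no other marker of this list (log2 fold change -1.52, edgeR unadjusted p 0.00517, adjusted p 0.648). The 8 endothelial markers summed to 330 to 449.9 CPM in Het and 360.2 to 423 CPM in WT, and the 9 stellate cell markers to 306 to 337 CPM in Het and 329.8 to 372 CPM in WT. Cholangiocyte markers (5 of 6 tested) summed to at most 54.8 CPM in Het and 61.9 CPM in WT, 10 leukocyte markers to at most 17.5 CPM in Het and 25.2 CPM in WT, and erythroid markers (5 of 6 tested) to 110 to 165 CPM in Het and 99.5 to 269 CPM in WT. Of the leukocyte markers, Ptprc had 8.96 ± 2.39 CPM in Het and 13.9 ± 4.49 CPM in WT (edgeR unadjusted p 0.0439, adjusted p 0.694), and Ms4a1 0.41 ± 0.18 CPM in Het and 0.88 ± 0.40 CPM in WT (edgeR unadjusted p 0.0397, adjusted p 0.694). Their genotypes overlapped. Of 7 markers of kidney, intestine and pancreas 3 were tested, 1 with a log2 fold change above 0 and 2 below. Nearly all of their sum was Fabp2, the 1 above 0, at 146 ± 25.1 CPM in Het and 112 ± 7.64 CPM in WT. The part of cell composition in the levels of the 10 genes was not tested.

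Of 17 chaperone and stress genes of the endoplasmic reticulum, a list written with earlier results of these data known, 0 passed by edgeR, 12 had all Het libraries above all WT libraries (7.15% of all tested genes did) and DESeq2 called 8 (0.353% of all genes that it tested). By edgeR's unadjusted p 12 were under 0.05, as were 7.15% of all tested genes in either direction, and the adjusted p of edgeR called 0 of all 14606 genes. Manf had 111 ± 19.98 CPM in Het and 45.4 ± 3.83 CPM in WT, and Hyou1 275 ± 67.9 CPM in Het and 122 ± 11.1 CPM in WT. Of 17 clock genes 0 were called by either tool, with Clock at 23.9 ± 6.39 CPM in Het and 37.8 ± 4.56 CPM in WT, and Nr1d1 at 17.6, 55.5 and 46.9 CPM in Het, against 9.49, 21.4 and 10.4 CPM in WT.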

How the data were processed

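Read counts per Ensembl gene for 6 liver libraries were analysed as the authors deposited them, raw per the file headers and with whole numbers throughout. The submitters' processing notes name build mm10 and list STAR 2.5.3a, cutadapt 1.10, DESeq2 1.16.1, bcl2fastq 2.17.1.14 and HTSeq 0.6.1p1. The libraries kept strand, per the labels' protocols, while for the annotation, strand setting and multiply mapped reads the entry is: not given in the sources used here. A further 12 per-sample columns, normalized and with altered decimal marks, and a table of the authors' own comparison were not used here.

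From the counts, edgeR 4.0.16 in R 4.3.3 was run with filterByExpr, TMM scaling and a two-sided quasi-likelihood test of genotype over all 14606 genes kept, with Benjamini-Hochberg adjustment and a threshold of 0.05. Standard errors and 95% intervals were taken from the F statistic. DESeq2 1.42.0 and limma-voom (limma 3.58.1) were alternatives, as were scaling by upper quartile or RLE, testing without a filter, keeping genes at 1 CPM in 3 libraries, the replicate number as a block, each library left out, and Het 2 and Het 3 left out. Exact permutation tests used scipy 1.17.1. The tests were tried on simulated data. Exons came from GENCODE M21, whose coordinates equalled the table's for all 10 genes. Promoters came from RefSeq (GRCm38.p6), which had an entry for 5 of them.

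The 10 genes and the gene lists were chosen with earlier results of these data known. Besides the 10, Ptprd, Dbp, Arntl, Glul, Cyp2e1, Cyp1a2 and Alb were named by rule, with, in each list, up to 4 genes past the threshold or else the 2 with the smallest unadjusted p. This rule also chose genes of the cell type marker lists, of which Ttr, Marco, Ptprc, Ms4a1 and Fabp2, each with an unadjusted p under 0.05, are given and the rest are reported within sums. Glud1 and the enzymes of the closing observations were picked once their values had been seen. The 3 genes most like a member are given for the 2 members that varied most and the 2 that varied least. Of the genes that these rules name, 2 are not reported here.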

Additional observations from a re-analysis of the deposited data

How the results depend on the processing

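With 0 of 10 genes called under each of the 14 alternatives, the count of called members held throughout, at adjusted p of 0.424 or more. Over the whole table edgeR called 0 genes, DESeq2 56, edgeR with no filter on low counts 73, and fits without 1 library 0 to 1. The median log2 fold change of the 10 genes ranged from -0.29 to 0.00 without single libraries. Cps1, Otc, Ass1 and Gls2 kept a negative sign under all 14 alternatives. The sign of 6 genes turned when 1 library was left out, with ranges of -0.40 to 0.0092 for Asl, -0.17 to 0.21 for Arg1, -0.012 to 0.17 for Nags, -0.13 to 0.15 for Slc25a15, -0.51 to 0.024 for Hal and -0.24 to 0.64 for Sds. Without both Het 2 and Het 3 the values of Hal and Sds were 0.14 and -0.084. That fit leaves 1 Het library, which is assumed to vary like the others. The cause of these turns was not tested. Samples with the same replicate number deviated together with correlations of -0.07, 0.12 and 0.15, and 2 of 6 libraries correlated best with their own number, so the numbers were not taken to pair the samples. With the replicate block edgeR called 0 genes and 0 members, and the median of the 10 genes was -0.20. Each genotype had 3 libraries, and the 10 genes had at least 2643 counts in each.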

Other observations

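Some enzymes of the 5 amino acid lists were, like most of the 10 genes, highest in WT 1. Those given here were chosen after their values were seen. Of the 80 tested genes of these lists, 37 were highest in WT 1 and lowest in Het 3, beside 4.64% of all tested genes. Got1, the cytosolic aspartate aminotransferase gene, had 340.4, 503 and 179 CPM in Het 1, Het 2 and Het 3, and 552, 276 and 292 CPM in WT 1, WT 2 and WT 3. Prodh, which opens proline breakdown, had 207, 263 and 168 CPM in Het, against 366, 245 and 218 CPM in WT. Bhmt, which remethylates homocysteine, had 508, 463 and 129.9 CPM in Het, against 972, 305 and 341 CPM in WT. In each, WT 1 was the highest and Het 3 the lowest library. Oat had 879, 1218 and 751 CPM in Het, against 1287, 682 and 715 CPM in WT, with WT 1 highest and WT 2 lowest. Although Oat and Glul are both pericentral, Glul was highest in WT 3 and, like Oat, lowest in WT 2. Their log2 fold changes, Het over WT, were -0.13 for Got1, -0.38 for Prodh, -0.56 for Bhmt and 0.08 for Oat, and none passed edgeR's adjusted threshold.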
